A study of Mus musculus with 6 samples.

Results

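The kinesins, cytoplasmic dyneins and dynactin subunits are the machinery that moves cargo along microtubules. On the mouse Affymetrix array used here they were taken as every probe set with exactly 1 gene symbol that starts with Kif plus a digit, Klc plus a digit, Dync, Dynl or Dctn, which gave 141 of the 45101 probe sets in the table. These read 59 of the 18193 genes named on the array. They comprised 105 kinesin probe sets for 40 genes, 22 dynein probe sets for 13 genes and 14 dynactin probe sets for 6 genes. The rule uses gene symbols alone.

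RNA of motor neurons from the mouse brainstem was measured on 6 arrays, 3 from SOD1 mice and 3 from wild-type (WT) mice. Sod1 encodes a superoxide dismutase, and mutations of the human gene cause some forms of amyotrophic lateral sclerosis (ALS), in which motor neurons die. The labels used here give no SOD1 allele, age, strain or way in which motor neurons were collected. Nor do they say if replicates were separate mice, so the p-values cover only the spread among these samples, which may be partly technical.

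Kinesins mostly walk toward the plus end of microtubules, which in an axon points away from the cell body, and carry organelles, vesicles and cytoskeletal proteins outward. Cytoplasmic dynein walks the other way and returns signalling endosomes, autophagosomes and worn organelles to the cell body, with dynactin as the cofactor that lets it bind cargo and run for long distances. Motor neurons have some of the longest axons of the body. In humans, mutations of KIF5A, DCTN1 and DYNC1H1 cause diseases of motor neurons.

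Values are log2 of the quantile-normalised signal plus 16, differences are SOD1 minus WT with their standard error (SE) and n = 3 arrays per group, and the added 16 understates the differences of low signals. A probe set was tested if its mean signal lay above the 40th percentile of all probe sets, which kept 98 of the 141 motor probe sets, for 48 genes. Of the 43 left out, 0 were above the background level of the bacterial control probe sets on every array, and 15 were above it on no array. Signals of different probe sets are on different scales, so a higher signal of 1 gene than of another is not read as more RNA.

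The RNA carried the markers of motor neurons on all arrays, and also those of other cells. All 12 tested probe sets of motor neuron markers were above background on every array, and 0 of them passed the test. At an unadjusted p under 0.05, 3 were lower in SOD1 (Ache, Slc18a3 and Nefm), or 25%, against 7.58% of all probe sets tested. The difference was negative for 7 of the 12 and positive for 5. The summed signal of these markers, with 1 probe set per gene, was 473182 to 523071 on the SOD1 arrays and 522332 to 587037 on the WT arrays. The summed signal of 13 microglial markers was 113115 to 219033 in SOD1 and 10068 to 45056 in WT, and 5 of the 16 tested probe sets rose (limma, adjusted p under 0.05). That of 8 astrocyte markers was 239658 to 244984 in SOD1 and 200839 to 207668 in WT. By the same test 2 of the 23 astrocyte probe sets rose, Gfap 1440142_s_at by 3.38 and Aqp4 1434449_at by 1.61. At an unadjusted p under 0.05, 14 of the 23 were higher in SOD1 (60.9%) and 0 lower, against 7.09% and 7.58% of all probe sets tested. The summed signal of 8 oligodendrocyte markers was 246936 to 268276 in SOD1 and 195044 to 225435 in WT, with 0 of 20 probe sets past the threshold. Of the 20, 8 were higher in SOD1 at an unadjusted p under 0.05 (40%, against 7.09% of all probe sets tested) and 0 lower. The difference was positive for 19 of them. That of 11 endothelial and mural markers was 5629 to 19805 in SOD1 and 29220 to 71017 in WT, with 2 of 15 probe sets fallen by the same test. Among all probe sets tested, 0.0629% rose and 0.122% fell by this test. In these lists every gene was above background on at least 1 array. Xist, transcribed from the inactive X chromosome of females, was at 12.83, 12.91 and 5.71 on SOD1 replicates 1, 2 and 3, and at 7.07, 6.60 and 5.76 on WT replicates 1, 2 and 3. It was thus high only on SOD1 replicates 1 and 2. A term for Xist, used below, overlaps in part with group and cannot fully separate sex from it. Many motor genes are used by neurons and glia alike, so a difference in the cells sampled and a difference in RNA per cell cannot be told apart here, and the part of these markers in the motor values was not tested.

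No motor probe set passed the test between SOD1 and WT. Of the 98 tested, 0 passed the threshold in either direction (limma, adjusted p under 0.05), with a lowest adjusted p of 0.138, for Dctn1. Over all 27022 probe sets tested, 50 passed, or 0.185%, of which 17 were higher in SOD1 (0.0629%) and 33 lower (0.122%). At an unadjusted p under 0.05 there were 14 motor probe sets, or 14.3%, against 14.7% of all probe sets tested. Of these 14, 6 were higher in SOD1 and 8 lower, where 7.09% and 7.58% of all probe sets were. The SOD1 and WT arrays did not overlap for 22 motor probe sets, or 22.4%, against 20.3% of all. SOD1 was wholly above WT for 10 of them (10.2%, against 10.5% of all) and wholly below for 12 (12.2%, against 9.81%). These shares are close to those of the whole array. The 6 to 8 split of higher to lower calls depended on the scaling, and was 11 to 7 on the values as deposited and 16 to 4 after median centring.

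In the main setting the differences were small and centred near 0. The median difference was 0.03 for the 63 tested kinesin probe sets, 0.05 for the 22 of dynein and -0.06 for the 13 of dynactin, beside -0.0065 for all probe sets tested. That of dynein depended on the scaling. It was 0.16 on deposited values, beside -0.062 for all, and 0.27 after median centring, beside 0.043 for all. The sign was positive for 51 of the 98 and negative for 47. Over 1 log2 unit, which is 1 doubling, lay 5 motor differences (5.10%), against 10.5% of all. These shares are not matched for signal, and the median SE was 0.30 for the motor probe sets and 0.37 for all. Precision followed signal, and the median SE was 0.39 for kinesins, 0.16 for dynein and 0.22 for dynactin. The 95% interval of the difference lay within 1 log2 unit on both sides for 15 of the 22 dynein probe sets, 9 of the 13 of dynactin and 24 of the 63 of kinesins. A p that misses the threshold does not show that a gene was alike in both groups, and for many kinesins a doubling is still inside the interval.

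**Figure D1:**
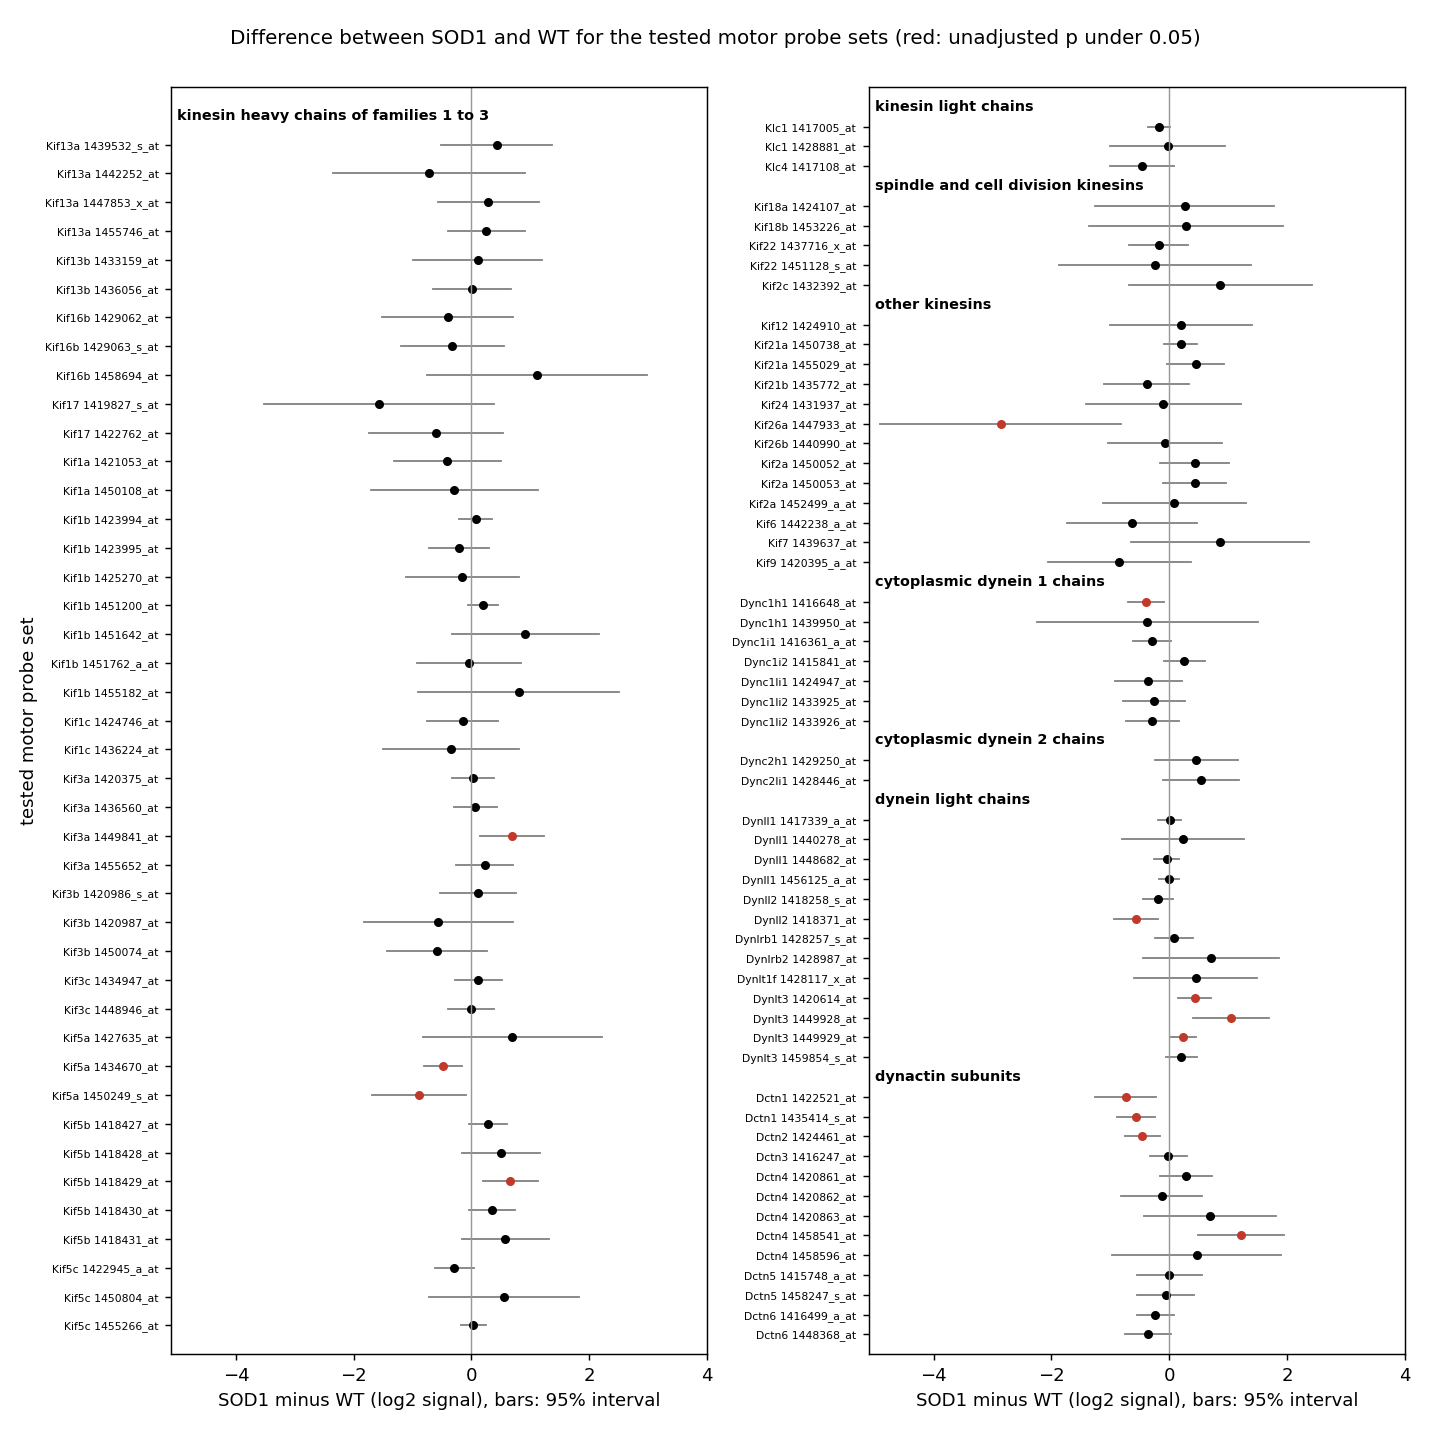
SOD1 minus WT (log2 signal, x axis) for each of the 98 tested motor probe sets, grouped by role, with 95% intervals not adjusted for the number of tests. Red points mark the 14 with an unadjusted p under 0.05, and most intervals cross 0, widest among the kinesins of low signal.

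Kinesin-1 carries many cargoes of the axon, and none of the probe sets of its 3 heavy chain genes passed the test. Differences between these genes were not tested. Kif5a, the neuronal heavy chain, was at 15.99, 16.04 and 15.71 in SOD1 and at 16.09, 16.43 and 16.66 in WT on probe set 1434670_at. Every SOD1 array was lower than every WT array, by -0.48 ± 0.15, and the difference did not pass (limma, adjusted p = 0.180). After median centring it was -0.24. Probe set 1450249_s_at of the same gene showed the same order, with 9.61, 9.04 and 9.06 in SOD1 and 9.80, 10.13 and 10.47 in WT, a difference of -0.89 ± 0.36 (adjusted p = 0.289). Another Kif5a probe set, 1427635_at, not above background on 2 WT arrays, gave 0.69 ± 0.69 and so the other sign.

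Kif5b, the heavy chain that nearly all cells use, had a positive difference on all 5 of its tested probe sets, between 0.28 and 0.66. On probe set 1418429_at it was at 13.44, 13.46 and 13.89 in SOD1 and at 13.14, 13.00 and 12.68 in WT, with no overlap, and differed by 0.66 ± 0.21 (adjusted p = 0.199). Probe set 1418427_at had 15.23, 14.83 and 14.94 in SOD1 and 14.73, 14.78 and 14.64 in WT, again with no overlap (0.28 ± 0.14, adjusted p = 0.394). This difference was 0.47 after median centring and 0.16 without SOD1 replicate 1. On 1418430_at the values were 14.26, 13.84 and 14.09 in SOD1 and 13.83, 13.54 and 13.76 in WT (0.35 ± 0.18, adjusted p = 0.387). Here too the SOD1 arrays were the higher ones, the closest pair being 13.84 in SOD1 and 13.83 in WT. The other 2 tested Kif5b probe sets, 1418428_at and 1418431_at, differed by 0.51 ± 0.30 and 0.58 ± 0.34 with overlapping arrays. Another was below the filter.

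Kif5c, a heavy chain of neurons, was at 16.40, 16.50 and 16.63 in SOD1 and at 16.50, 16.37 and 16.57 in WT on probe set 1455266_at. The groups overlapped throughout, and the difference of 0.03 ± 0.10 had a 95% interval from -0.18 to 0.25. Its probe set 1422945_a_at gave -0.29 ± 0.15 and 1450804_at 0.55 ± 0.58, neither past the threshold. The first of these was -0.18 on deposited values and with a term for Xist, -0.17 without WT replicate 1 and -0.075 after median centring.

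The kinesin light chains join the heavy chains to cargo. Klc1, the main light chain of neurons, was at 16.66, 16.54 and 16.55 in SOD1 and at 16.81, 16.67 and 16.80 in WT on probe set 1417005_at. The arrays did not overlap, but the difference was small, at -0.17 ± 0.09 (limma, adjusted p = 0.378), and its sign followed the scaling: it was 0.0095 on deposited values and 0.12 after median centring. Klc4, another light chain, was at 11.86, 11.65 and 11.73 in SOD1 and at 11.95, 12.16 and 12.51 in WT on 1417108_at, a difference of -0.46 ± 0.25 (adjusted p = 0.416). A second Klc1 probe set, 1428881_at, differed by -0.03 ± 0.44. The other 3 light chain probe sets, among them the only one of Klc3, were below the filter.

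Kinesin-2 motors are built from Kif3a with Kif3b or Kif3c and serve cilia and axons. The 4 probe sets of Kif3a all had positive differences, of 0.03, 0.06, 0.22 and 0.69. The last, 1449841_at, was at 12.54, 12.82 and 12.96 in SOD1 and at 12.29, 12.26 and 11.69 in WT, with no overlap (0.69 ± 0.25, limma, adjusted p = 0.240). Probe set 1436560_at overlapped, with 14.58, 14.61 and 14.16 in SOD1 and 14.27, 14.39 and 14.50 in WT (0.06 ± 0.17). The tested probe sets of Kif3b ranged from -0.59 to 0.11 and those of Kif3c, which is enriched in neurons, from -0.0039 to 0.11. Kif17, a kinesin-2 of dendrites and cilia, gave -1.57 ± 0.89 on 1419827_s_at, where SOD1 replicate 3, at 4.73, was far below the other SOD1 arrays at 8.19 and 8.58 and the WT arrays at 8.54, 8.95 and 8.72. Its second tested probe set gave -0.61 ± 0.52.

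Kinesin-3 motors carry vesicles, synaptic vesicle precursors among them. Kif1b, which also moves mitochondria, was read by 7 tested probe sets, with differences from -0.21 to 0.91, 4 of them positive. On 1451200_at it was at 15.96, 16.16 and 15.84 in SOD1 and at 15.81, 15.70 and 15.86 in WT, overlapping in SOD1 replicate 3 and WT replicate 3 (0.20 ± 0.11, limma, adjusted p = 0.448). On 1423994_at the difference was 0.07 ± 0.13. Kif1a, the main carrier of synaptic vesicle precursors, differed by -0.41 ± 0.41 and -0.29 ± 0.65 on its 2 tested probe sets. Kif1c gave -0.15 and -0.35, Kif13b 0.0044 and 0.10, Kif13a -0.72 to 0.43, and Kif16b, a motor of early endosomes, -0.40 to 1.11, all with overlapping arrays. The single probe set of Kif28 was below the filter. Over all kinesin heavy chains of families 1 to 3, 42 of 52 probe sets were tested, 24 were positive (57.1%, against 49.5% of all probe sets tested) and 18 negative, and 4 had an unadjusted p under 0.05 (9.52%, against 14.7%).

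**Figure D2:**
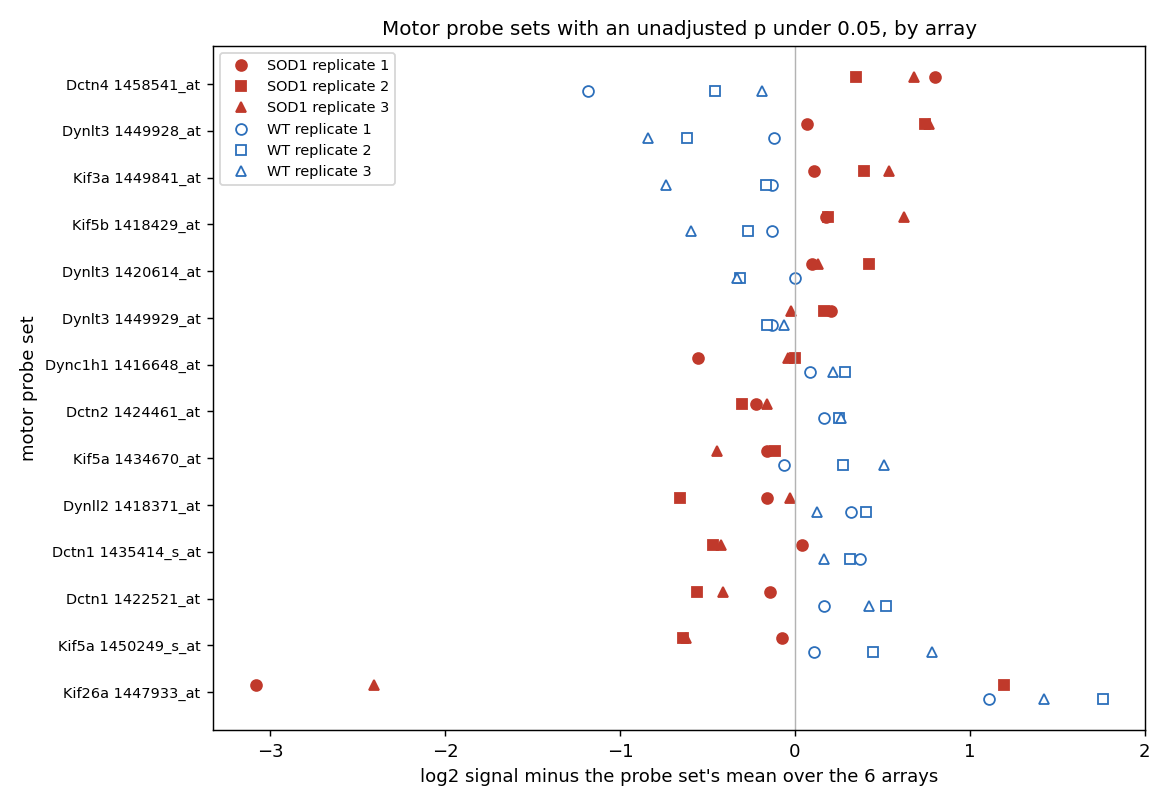
The 14 motor probe sets with an unadjusted p under 0.05, by array (x axis: log2 signal minus the probe set's own mean over the 6 arrays). SOD1 arrays are filled and WT arrays open, and for 13 of the 14 they do not overlap, Kif26a being the one where SOD1 replicate 2 lies among the WT arrays.

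Other kinesins act on microtubules themselves or outside axonal transport. Kif2a, which takes microtubules apart at their ends, differed by 0.44 ± 0.24 on probe set 1450053_at and 0.43 ± 0.27 on 1450052_at, the second with no overlap, at 11.93, 11.89 and 12.13 in SOD1 and 11.77, 11.14 and 11.74 in WT (limma, adjusted p = 0.485). Probe set 1452499_a_at gave 0.09 ± 0.55. The remaining Kif2a probe sets were below the filter and not tested. Of these, 1454107_a_at was at 8.19, 7.91 and 8.24 in SOD1 and at 5.23, 6.75 and 6.67 in WT, above background on the SOD1 arrays alone. The other, 1432072_at, overlapped. Kif21a, which restrains microtubule growth, was at 14.85, 15.43 and 15.21 in SOD1 and at 14.74, 14.25 and 15.14 in WT on 1455029_at (0.45 ± 0.22, adjusted p = 0.375), and gave 0.20 ± 0.13 on 1450738_at. The first was 0.22 without WT replicate 2. Kif21b, its relative, gave -0.38 ± 0.33.

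Kif26a had the largest difference of all motor probe sets. This kinesin-like protein, which in mice dampens growth signalling in enteric neurons, was at 5.04, 9.32 and 5.72 in SOD1 and at 9.23, 9.88 and 9.55 in WT on its single probe set, 1447933_at. SOD1 replicates 1 and 3 were below background and SOD1 replicate 2 was level with WT, so the groups overlapped and the difference of -2.86 ± 0.93 did not pass (limma, adjusted p = 0.205). The remaining tested kinesins of this group, Kif6, Kif7, Kif9, Kif12, Kif24 and Kif26b, lay between -0.84 and 0.86 on probe sets of low signal.

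Kinesins of the mitotic spindle mostly lay below the filter, and 5 of 25 probe sets, for 4 of 12 genes, were tested. Kif22, which binds chromosome arms, was at 13.84, 13.32 and 13.16 in SOD1 and at 13.88, 13.31 and 13.67 in WT on 1437716_x_at, the only one above background on every array. The groups overlapped, with a difference of -0.18 ± 0.23 (limma, adjusted p = 0.752), and a probe set of this suffix can also match other transcripts. The second tested Kif22 probe set gave -0.25 ± 0.74, Kif18a 0.26 ± 0.69, Kif18b 0.28 ± 0.75 and Kif2c, a microtubule depolymerase of the centromere, 0.87 ± 0.70. Other markers of dividing cells had 0 of 13 tested probe sets past the threshold, with 10 positive and 3 negative. At an unadjusted p under 0.05, 4 were higher in SOD1 (30.8%, against 7.09% of all probe sets tested). The summed signal of these markers over 14 genes was 4623 to 5682 in SOD1 and 3152 to 3814 in WT. The intervals of the spindle kinesins reached a median of 1.55 to either side. Only that of Kif22 1437716_x_at, from -0.69 to 0.32, lay within 1 log2 unit. The other intervals were too wide to show or bound such a difference.

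Cytoplasmic dynein 1 is the motor of retrograde axonal transport. Its heavy chain gene Dync1h1, which encodes the motor domain, was at 15.74, 16.29 and 16.25 in SOD1 and at 16.38, 16.57 and 16.51 in WT on probe set 1416648_at. No SOD1 array reached the lowest WT array, and the difference was -0.39 ± 0.14 (limma, adjusted p = 0.241), a 1.31-fold lower signal. Its size varied with the scaling, with -0.21 on deposited values and -0.11 after median centring. Leaving out SOD1 replicate 1 gave -0.21 and a term for Xist -0.26. The other Dync1h1 probe set, above background on 4 of the 6 arrays, gave -0.37 ± 0.85.

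The intermediate chains, which bind dynactin and cargo, had differences of opposite sign. Dync1i1, the form enriched in neurons, was at 14.44, 14.49 and 14.62 in SOD1 and at 14.93, 14.60 and 14.90 in WT, overlapping in SOD1 replicate 3 and WT replicate 2 (-0.29 ± 0.15, limma, adjusted p = 0.385), and the difference was -0.12 after median centring. Dync1i2, the form found in most cells, was at 14.09, 13.98 and 13.98 in SOD1 and at 13.74, 13.66 and 13.88 in WT, with no overlap (0.26 ± 0.16, adjusted p = 0.484). Neither passed, and whether the 2 chains differ from each other was not tested. The light intermediate chains, which take part in adaptor binding, had negative differences on all 3 probe sets, of -0.35 ± 0.26 for Dync1li1 and of -0.26 ± 0.24 and -0.29 ± 0.21 for Dync1li2. Of the 7 dynein 1 probe sets, which read 5 genes, 6 were negative and 1 positive (14.3%, against 49.5% of all probe sets tested). With a term for Xist, Dync1li2 1433925_at took the other sign, at 0.14. Dynein 2, which works inside cilia, had positive values on both its probe sets, 0.46 ± 0.32 for the heavy chain Dync2h1 and 0.54 ± 0.30 for the light intermediate chain Dync2li1, with overlapping arrays. The summed signal of 10 markers of ependymal and motile ciliated cells was 3044 to 3808 in SOD1 and 3113 to 12947 in WT, and their part was not tested. Its top value came with Ttr, a gene of the choroid plexus, which was at 9.65, 8.84 and 11.14 in SOD1 and at 13.21, 7.72 and 9.08 in WT.

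The dynein light chains are small subunits that several other protein complexes also use. Dynlt3, a light chain of the Tctex type encoded on the X chromosome, had positive differences on all 4 probe sets, between 0.21 and 1.05. On 1449928_at it was at 11.88, 12.55 and 12.58 in SOD1 and at 11.70, 11.20 and 10.97 in WT, 2.07-fold higher with no overlap (1.05 ± 0.30, limma, adjusted p = 0.156). On 1420614_at it was at 16.17, 16.49 and 16.20 in SOD1 and at 16.07, 15.75 and 15.74 in WT, also apart (0.43 ± 0.13, adjusted p = 0.166). On 1449929_at the values were 16.41, 16.37 and 16.18 in SOD1 and 16.07, 16.04 and 16.14 in WT (0.24 ± 0.10, adjusted p = 0.310). The SOD1 arrays were thus above the WT arrays on 3 of the 4 probe sets. With a term for Xist the 3 differences were 1.19, 0.34 and 0.13 (adjusted p = 0.211, 0.386 and 0.690), and after median centring 1.09, 0.69 and 0.48. The fourth, 1459854_s_at, gave 0.21 ± 0.12.

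Dynll1 and Dynll2 encode the light chains of the other main type, which bind many partners. Dynll1 had narrow intervals around 0, with 16.92, 16.87 and 16.87 in SOD1 and 16.96, 16.84 and 16.85 in WT on 1456125_a_at, a difference of -0.00072 ± 0.08 and a 95% interval from -0.17 to 0.17. Its other probe sets gave 0.0081 ± 0.09, -0.05 ± 0.09 and 0.24 ± 0.47, and after median centring the difference was 0.29 on 1456125_a_at and 0.21 on 1448682_at. Dynll2 was at 14.91, 14.41 and 15.04 in SOD1 and at 15.39, 15.48 and 15.20 in WT on 1418371_at, every SOD1 array the lower (-0.57 ± 0.17, limma, adjusted p = 0.173). This was -0.36 after median centring, -0.38 with a term for Xist and -0.38 without SOD1 replicate 2. Its other probe set, 1418258_s_at, gave -0.19 ± 0.11 with overlap, and 0.03 after median centring. Dynlrb1, Dynlrb2 and Dynlt1f differed by 0.08 ± 0.15, 0.71 ± 0.53 and 0.45 ± 0.47, and the Dynlt1f probe set may also read its near-identical neighbours.

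Dynactin holds dynein to microtubules and cargo, and its subunits Dctn1 and Dctn2 were lower on every SOD1 array than on any WT array, without passing the test. Dctn1, the large subunit that grips the microtubule and the dynein intermediate chain, was at 15.56, 15.05 and 15.10 in SOD1 and at 15.90, 15.83 and 15.69 in WT on probe set 1435414_s_at. Every SOD1 array was below every WT array, by -0.57 ± 0.15 or 1.48-fold (limma, adjusted p = 0.138), and by -0.35 after median centring. Its other probe set, 1422521_at, showed the same, with 12.12, 11.70 and 11.85 in SOD1 and 12.43, 12.78 and 12.69 in WT (-0.74 ± 0.23, adjusted p = 0.189). Dctn2, the subunit known as dynamitin, whose excess takes the complex apart, was at 14.28, 14.20 and 14.35 in SOD1 and at 14.67, 14.76 and 14.77 in WT on its single probe set, 1424461_at. The arrays of each group lay close together, and the difference was -0.46 ± 0.14 (adjusted p = 0.169), with a 95% interval from -0.76 to -0.16. After median centring this difference was -0.31.

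The pointed-end subunits of dynactin, which contact cargo adaptors, varied. Dctn6 was at 13.93, 13.61 and 13.87 in SOD1 and at 13.95, 14.14 and 14.41 in WT on 1448368_at (-0.36 ± 0.18), and at 14.28, 14.17 and 14.36 in SOD1 and 14.63, 14.45 and 14.46 in WT on 1416499_a_at (-0.24 ± 0.14). Neither overlapped, and neither passed (limma, adjusted p = 0.378 and 0.480). Dctn5 overlapped on both probe sets (0.0048 ± 0.25 and -0.06 ± 0.22), as did Dctn3, a small subunit of the shoulder, at 15.56, 15.08 and 15.50 in SOD1 and 15.33, 15.44 and 15.41 in WT (-0.02 ± 0.14). Dctn4 was uneven. On 1458541_at it was at 11.58, 11.12 and 11.46 in SOD1 and at 9.59, 10.32 and 10.59 in WT, 2.33-fold higher (1.22 ± 0.33, adjusted p = 0.150), while its other 4 tested probe sets gave 0.28 ± 0.20, -0.13 ± 0.31, 0.69 ± 0.51 and 0.47 ± 0.65 with overlap.

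Of the 13 dynactin probe sets, SOD1 lay wholly below WT for 5 (38.5%) and wholly above for 1 (7.69%). Over all probe sets tested these shares were 9.81% and 10.5%. These shares are those of the main setting and were not computed under the other scalings. The 5 come from 3 genes, since 2 read Dctn1 and 2 read Dctn6, and none passed the test. Of the 12 tested probe sets of motor neuron markers, 7 were negative and 5 positive. Those of Ache, Slc18a3 and Nefm were lower at an unadjusted p under 0.05. The part of these markers in the dynactin values was not tested.

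**Figure D3:**
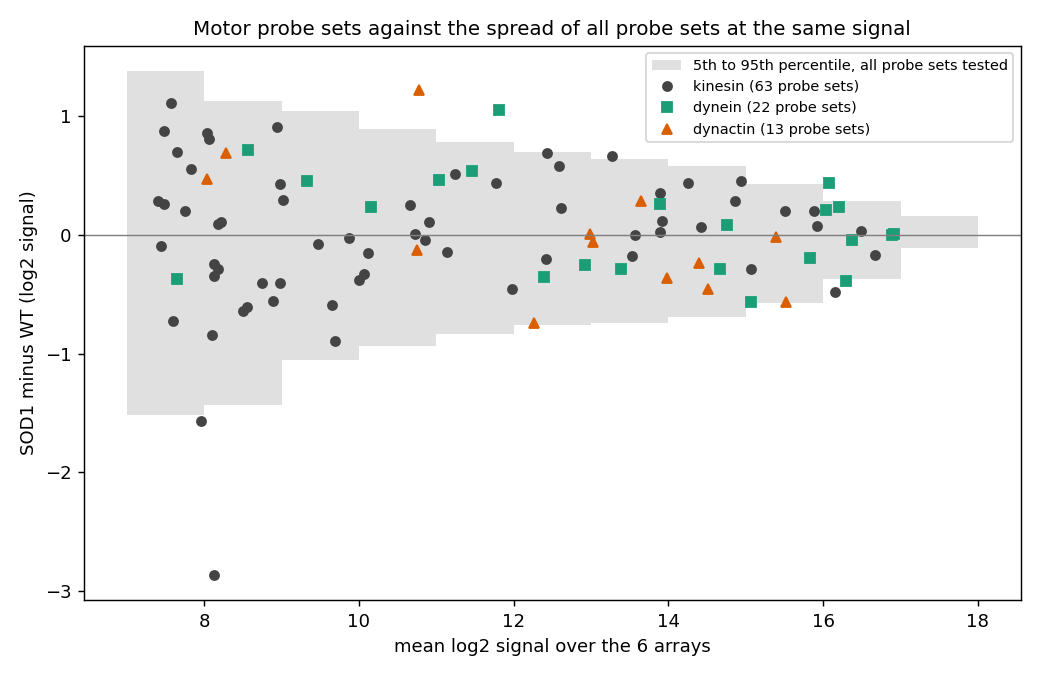
SOD1 minus WT (log2 signal, y axis) against mean log2 signal over the 6 arrays (x axis) for kinesin, dynein and dynactin probe sets, with a grey band from the 5th to the 95th percentile of all probe sets tested in each unit of signal. Of the 98 motor probe sets 90 lie inside the band, 4 above it and 4 below.

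Set against probe sets of similar signal, the motor genes spread as the rest of the array did. Of the 98, 90 (91.8%) fell between the 5th and 95th percentile of all probe sets in the same unit of signal, a band that holds 90% by construction. Those above were Kif5b 1418429_at, Dynlt3 1449928_at and 1420614_at and Dctn4 1458541_at, and those below Kif5a 1434670_at, Kif17 1419827_s_at, Kif26a 1447933_at and Dync1h1 1416648_at.

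Probe sets of 1 gene did not always go the same way. Of the 26 genes with 2 or more tested probe sets, 16 had a single sign throughout, 6 of them positive, among them Kif5b, Kif3a, Kif2a and Dynlt3, and 10 negative, among them Dctn1, Dctn6, Dync1h1 and Dync1li2. The other 10 had both signs, with the widest spreads in Kif5a (1.59), Kif16b (1.51) and Dctn4 (1.35). The 22 genes with 1 tested probe set had no such check, and 11 genes had none tested. Where each probe set lies in its transcript was not analysed here.

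Adaptors and regulators of the motors, with some motor components whose symbols the rule does not take, gave 1 call. The array held 62 genes of this list with 156 probe sets, of which 133, for 60 genes, were tested. Of these, 1 fell and 0 rose (limma, adjusted p under 0.05), where 0.122% and 0.0629% of all probe sets tested did. At an unadjusted p under 0.05 there were 21 lower in SOD1 and 2 higher, where 7.58% and 7.09% of all probe sets tested were. SOD1 lay wholly below WT for 29 (21.8%) and wholly above for 4 (3.01%), against 9.81% and 10.5% of all probe sets, and the median difference was -0.21, against -0.0065 for all. These values are those of the main setting, and the list as a whole was not tested under the other scalings, which changed the split of motor calls. The list also holds kinesins (Kifc1, Kifc2, Kifc3 and Cenpe), dynactin components (Actr1a, Capza1, Capza2 and Capzb), general kinases and membrane proteins, and several of its genes have up to 6 probe sets, so these counts are not independent. Its summed signal was 1101510 to 1175370 in SOD1 and 1160740 to 1348160 in WT. On the same arrays the sum of motor neuron markers was 473182 to 523071 in SOD1 and 522332 to 587037 in WT, and that of microglial markers 113115 to 219033 in SOD1 and 10068 to 45056 in WT, and their part was not tested.

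The fall was in Mapk8ip2, which encodes a scaffold of the JNK pathway that binds kinesin light chains. On 1449225_a_at it was at 14.97, 14.59 and 14.48 in SOD1 and at 15.53, 15.64 and 15.59 in WT, a difference of -0.91 ± 0.15 (limma, adjusted p = 0.0422). Of its 4 other tested probe sets, 3 gave -0.23, -0.20 and -0.11 and 1 gave 0.50, none past the threshold. The last, 1418786_at, separated the groups in the opposite direction, with 10.34, 9.93 and 10.24 in SOD1 and 9.77, 9.53 and 9.72 in WT. The call was lost in 12 of 17 alternative settings, among them deposited values (adjusted p = 0.0721) and median centring (adjusted p = 0.0951). It was also lost on leaving out SOD1 replicate 2 or 3 or any WT array, the adjusted p over all 6 such fits running from 0.0392 to 0.199. Clstn1, a membrane cargo linker for kinesin light chain, was at 15.22, 14.85 and 14.94 in SOD1 and at 15.73, 15.78 and 15.67 in WT (-0.72 ± 0.13, adjusted p = 0.0611), with no overlap. Gsk3b, a kinase that acts on light chains, gave -0.61 ± 0.14 (adjusted p = 0.118) and Kifc2, a neuronal kinesin that walks to the minus end, -1.21 ± 0.29 (adjusted p = 0.120), while their other probe sets ranged from -0.66 to 0.55 and gave -0.14. Capza2, a subunit of the capping protein that dynactin contains, was higher, at 14.37, 14.36 and 14.69 in SOD1 and 13.74, 13.48 and 13.90 in WT (0.77 ± 0.18, adjusted p = 0.116).

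In all 18 alternative settings, 0 motor probe sets passed, with lowest adjusted p-values between 0.0643 and 0.356 (limma). The share of motor probe sets with an unadjusted p under 0.05 ran from 8.16% to 20.4%, beside 9.84% to 18.2% of all probe sets under the same settings. All 14 with such a p kept their sign in every alternative in which they were tested. This is no independent support, because they were chosen by their p on these same arrays. Several alternatives also change only the variance or the filter and leave each difference as it was. Their p stayed under 0.05 for 8 without the variance trend, 8 with the term for Xist, 10 after median centring and 11 to 14 in the other alternatives.

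**Figure D4:**
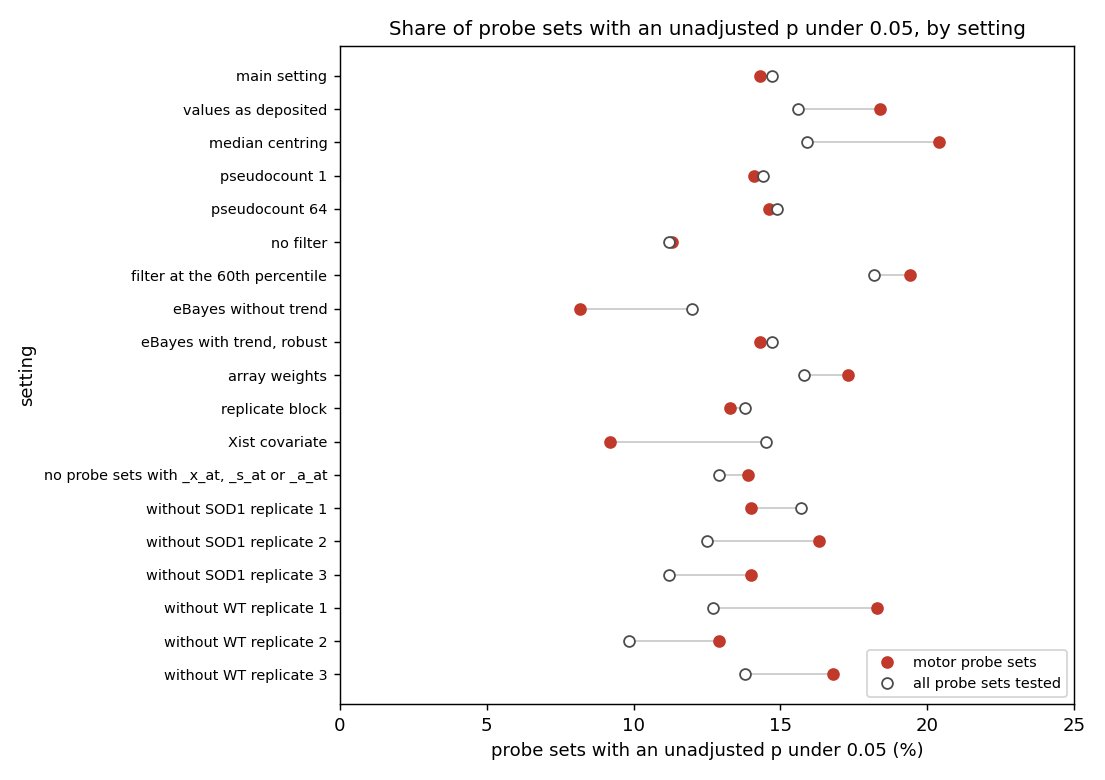
Share of probe sets with an unadjusted p under 0.05 (x axis, %) under the main setting and each of 18 alternatives (y axis), for the motor probe sets (filled) and all probe sets tested (open). In the main setting the motor share is 14.3% and that of all probe sets 14.7%, and over all settings the motor share runs from 8.16% to 20.4%.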

How the data were processed

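The deposited table holds 1 linear signal intensity per probe set and array; per the labels' protocols, total RNA went through 2 rounds of T7-based amplification, and no source used here names the software behind the signals. The number of arrays limits the precision. All 141 motor probe sets matched a gene in a RefSeq table (GRCm38.p6), and 0 symbols were updated. Another 4 probe sets that list a motor gene among several symbols were left out by the rule.

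After quantile normalisation and log2 of the signal plus 16, a filter at the 40th percentile kept 27022 of the 45037 probe sets that are not controls. SOD1 was compared with WT using limma 3.58.1 (R 4.3.3; linear model, empirical Bayes with a variance trend), two-sided, Benjamini-Hochberg adjusted over all tested, threshold 0.05. An array's background level is the value below which 95% of its 27 bacterial control probe sets fall. No exact permutation test on 3 against 3 arrays can give a p below 0.1. Arrays that share a replicate number had correlations of deviations of 0.03, -0.04 and -0.01, which does not exclude that the numbers pair arrays. Over replicates 1, 2 and 3 the microglial sum fell in both groups (219033, 131503 and 113115 in SOD1, 45056, 28517 and 10068 in WT). The endothelial and mural sum did not (16737, 19805 and 5629 in SOD1, 29220, 71017 and 30078 in WT). Summed signals of markers use the probe set of highest mean signal per gene, which served only to choose it.

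Members, lists and tests were chosen with earlier results of these data known. In each role group, genes were named for the 4 smallest p or the 3 highest signals, and of the adaptors the 5 smallest p; Kif1a, Kif1c, Kif3b, Kif3c, Kif6, Kif7, Kif9, Kif12, Kif13a, Kif13b, Kif16b, Kif17, Kif24, Kif26b, Kif28, Dync1li1, Dynlrb1, Dynlrb2, Dynlt1f, Dctn5, Dctn6, Klc3, Ache, Slc18a3, Nefm and Ttr were named after their values were seen. Figures used matplotlib 3.10.9.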

Additional observations from a re-analysis of the deposited data

How the results depend on the processing

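Of the alternatives tried, all kept the count of motor probe sets past the threshold (limma) at 0, while the count over all probe sets tested, 50, moved to 87 with a pseudocount of 64, 106 with the filter at the 60th percentile, 0 without the variance trend, 100 with array weights, 76 with the replicate block and 25 without probe sets whose suffix marks shared transcripts. Leaving out 1 array at a time gave 0 to 79 over all probe sets, with 0 without WT replicate 2, 6 without SOD1 replicate 2, 9 without WT replicate 1, 29 without SOD1 replicate 3 and 79 without WT replicate 3. The motor count at an unadjusted p under 0.05, 14, was 8 without the trend and 9 with a term for Xist. The median of all probe sets tested was -0.062 on deposited values, 0.043 after median centring, 0.012 with the term for Xist and -0.018 without shared suffixes. The median of dynein moved to 0.16, 0.27, 0.13 and 0.24 in these 4 settings, and ran from -0.013 to 0.077 over arrays left out. That of kinesins moved to 0.11 after median centring, 0.074 with no filter and 0.11 with the term for Xist, and ran from -0.018 to 0.091. That of dynactin was 0.077 with the term for Xist, and ran from -0.18 to 0.047. Pairing by replicate number changed 1 named call, that of Mapk8ip2 (adjusted p = 0.0506).

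These differences took the other sign in at least 1 alternative; the cause was not tested. In the main setting they lay between -0.26 and 0.28, except Kif1b 1455182_at at 0.80. On deposited values they were Klc1 1417005_at (0.0095), Dynll1 1448682_at (0.11) and 1456125_a_at (0.18) and Dctn3 (0.088), and after median centring Klc1 (0.12), Dynll1 (0.21 and 0.29), Dynll2 1418258_s_at (0.031) and Dctn3 (0.19). With array weights they were Kif1b 1451762_a_at (0.0075), Kif3a 1420375_at (-0.0030), Kif2a 1452499_a_at (-0.071) and Dctn3 (0.0018). With the term for Xist they were Kif1b 1451762_a_at (0.65), Kif3a 1436560_at (-0.16), Dync1li2 1433925_at (0.14), Dctn3 (0.087) and Dctn4 1420862_at (0.082). Over arrays left out, Dctn3 ran from -0.11 to 0.13 and Dctn4 1420862_at from -0.27 to 0.068. Dynll1 ran from -0.033 to 0.066 on 1417339_a_at, -0.28 to 0.53 on 1440278_at, -0.10 to 0.011 on 1448682_at and -0.021 to 0.036 on 1456125_a_at. Kif1b ran from -0.018 to 0.17 on 1423994_at, -0.52 to 0.19 on 1425270_at, -0.43 to 0.35 on 1451762_a_at and -0.18 to 1.35 on 1455182_at. Kif18a ran from -0.12 to 0.69, Kif18b from -0.048 to 0.98, Kif22 1451128_s_at from -0.91 to 0.58 and Kif2a 1452499_a_at from -0.19 to 0.48. Kif3a ran from -0.035 to 0.082 on 1420375_at and -0.015 to 0.21 on 1436560_at, Kif5c 1455266_at from -0.027 to 0.088 and Klc1 1428881_at from -0.33 to 0.38. Clstn1 passed the threshold with a pseudocount of 64 (adjusted p = 0.0472), the stricter filter (0.0301) and array weights (0.0422).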
